A study of Homo sapiens with 16 samples.

Results

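The sites described here are stretches of the genome of Jurkat cells at which ERG and GABPα were both found by ChIP-seq. The high confidence ERG intervals of both Jurkat replicates were merged into 2027 ERG sites, and a site was kept if it overlapped, by at least 1 bp, a high confidence GABPα interval of either Jurkat replicate. This rule selected 538 shared sites, 26.5% of the ERG sites (95% Wilson interval 24.7 to 28.5%). They overlapped 578 of the 10576 merged GABPα sites of the same cells (5.47%). The shared sites were chosen by these calls, so the Jurkat calls and scores below are a description without a test.

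ERG and GABPα are transcription factors of the ETS family, whose members bind DNA through a related domain that reads a short GGAA core. GABPα works with GABPβ, binds many promoters near the start of transcription and is found in most cell types. ERG is a factor of blood and vessel cells, is expressed in some T-cell leukaemias, and is switched on in many prostate cancers by fusion to the androgen-driven TMPRSS2 gene.

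The study mapped both factors in Jurkat cells, a line grown from a human T-cell leukaemia, and in VCaP cells, a line from a human prostate cancer that carries such a fusion. For Jurkat cells there were 2 ChIP samples of each factor, with no treatment named. For VCaP cells there was 1 sample of each factor at t0, 1 with vehicle (ethanol) and 1 with 1 nM R1881 (methyltrienolone, a synthetic androgen), the last pair after 48 h in charcoal-stripped serum. All 10 are cultures of 1 established line each. The study's methods state biological replicates for ChIP without naming samples, and nothing in the labels says which Jurkat samples came from separate cultures. Each pair of Jurkat replicates was called against 1 shared input. For each factor, the VCaP vehicle and R1881 samples also shared an input, and no R1881 input is labelled. The catalogue number of the ERG antibody in the labels is not the one in the study's methods, and which was used is not known here. ERG is therefore used below as the labels' name for these samples.

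A high confidence peak is one found by both peak callers used, MACS and SWEMBL. Its strength is the MACS score, which is 10 times the negative log10 p-value of the peak against input. A score of 50, the lowest called, stands for a p-value of 1e-05. Scores recurred at exactly 3100, so the highest cannot be ranked. Jurkat ERG replicates 1 and 2 had 1103 and 1801 high confidence intervals, Jurkat GABPα replicates 8288 and 9769, and VCaP samples between 2 (ERG at t0) and 6365 (GABPα with vehicle). The number of reads behind each list is unknown. The intervals of Jurkat ERG replicate 1, VCaP ERG at t0 and VCaP ERG with vehicle are unions of overlapping MACS and SWEMBL peaks and are wider than those of the other 7 samples, which are SWEMBL intervals.

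The other 1489 ERG sites form 2 sets for comparison. Of these, 748 overlapped a GABPα MACS peak in Jurkat cells without overlapping a high confidence GABPα interval, and 741 overlapped no GABPα peak. A further set holds the 9998 GABPα sites that overlapped no ERG site.

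Most shared sites were supported by more than the minimum of 1 sample per factor. All 4 Jurkat samples had a high confidence interval at 140 shared sites (26.0%), 3 of the 4 at 289 and only 2 at 109. When any MACS peak was counted, 394 sites (73.2%) had a peak in all 4 samples, 128 in 3 and 16 in 2. A shared site missing from 1 sample's high confidence list therefore usually still had a MACS peak there.

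ERG was called in both replicates at 250 shared sites (46.5%, interval 42.3 to 50.7%), against 38.5% of all ERG sites. It was called only in replicate 2 at 207 sites (38.5%, beside 45.6% of all ERG sites) and only in replicate 1 at 81 (15.1%, beside 15.9%). GABPα was called in both replicates at 319 shared sites (59.3%, interval 55.1 to 63.4%), against 64.5% of all Jurkat GABPα sites. It was called only in replicate 2 at 197 sites (36.6%, beside 24.9% of all GABPα sites) and only in replicate 1 at 22 (4.09%, beside 10.7%). GABPα replicate 2 had a high confidence interval at 516 of the 538 sites, the most of the 4 samples. Leaving out a second replicate removed more sites than leaving out a first. Without GABPα replicate 2 there were 341 shared sites, and without ERG replicate 2 there were 331. Without the first replicates the numbers were 516 (GABPα) and 473 (ERG).

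Every pairing of an ERG with a GABPα sample held shared sites. The intervals of ERG replicate 1 and GABPα replicate 1 overlapped at 192 of them, and those of ERG replicate 1 and GABPα replicate 2 at 320. For ERG replicate 2, the overlap was found at 285 sites with GABPα replicate 1 and at 428 with GABPα replicate 2. The longest ERG list and the longest GABPα list shared most sites, but ERG replicate 1, with its shorter list of wider intervals, shared more with GABPα replicate 2 than ERG replicate 2 did with GABPα replicate 1.

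GABPα at these sites was called by both programs, and the scores show how strong it was. At shared sites with a GABPα MACS peak, the median GABPα score was 346 in replicate 1 (from 51.6 to 3100) and 351 in replicate 2 (from 50.4 to 3100). At the 748 ERG sites with a GABPα MACS peak only, the medians were 114 and 107. At the GABPα sites without ERG they were 323 and 311. GABPα scored higher at shared sites than at the ERG sites left out, a difference the rule itself favours. The medians were somewhat above those of GABPα sites that had no ERG. Their 95% intervals, 312 to 386 in replicate 1 and 304 to 378 in replicate 2, included the medians of those sites. Without the sites beside peak-free stretches described below, the medians were 374 (95% interval 334 to 411) and 360 (336 to 409) at shared sites and 322 and 311 at GABPα sites without ERG.

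The ERG scores of shared sites covered the range of ERG scores elsewhere. Their medians were 175 in replicate 1 and 223 in replicate 2. The 748 ERG sites with a GABPα MACS peak only had 175 and 271, and the 741 sites without a GABPα peak had 123 and 219. The share of ERG sites that were shared changed little with ERG strength. In 4 equal groups of ERG sites from the lowest to the highest score, 26.8%, 29.2%, 23.5% and 26.7% were shared, and the 95% Wilson intervals of these shares overlapped. For GABPα sites ranked by GABPα score, the shares that overlapped ERG were 5.33%, 4.77%, 6.39% and 5.37%.

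Within the shared sites, the strength of one factor did not follow that of the other. Over the 394 sites with a MACS peak in all 4 samples, Spearman's rho was 0.89 between the GABPα replicates and 0.49 between the ERG replicates. Between an ERG and a GABPα sample it lay from -0.04 to 0.04 in the 4 pairings. Sites inside 1 MACS peak share its score, and the replicates of a factor share an input, so these values describe the lists and are given without a p-value. Both GABPα scores exceeded both ERG scores at 203 of these sites (51.5%), and both ERG scores exceeded both GABPα scores at 78 (19.8%). Over the whole high confidence lists, the median scores were also higher for GABPα (378 and 328) than for ERG (202 and 265). Antibodies and inputs differ between the factors and read numbers are unknown, so these scores do not compare the binding of ERG with that of GABPα.

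**Figure D1:**
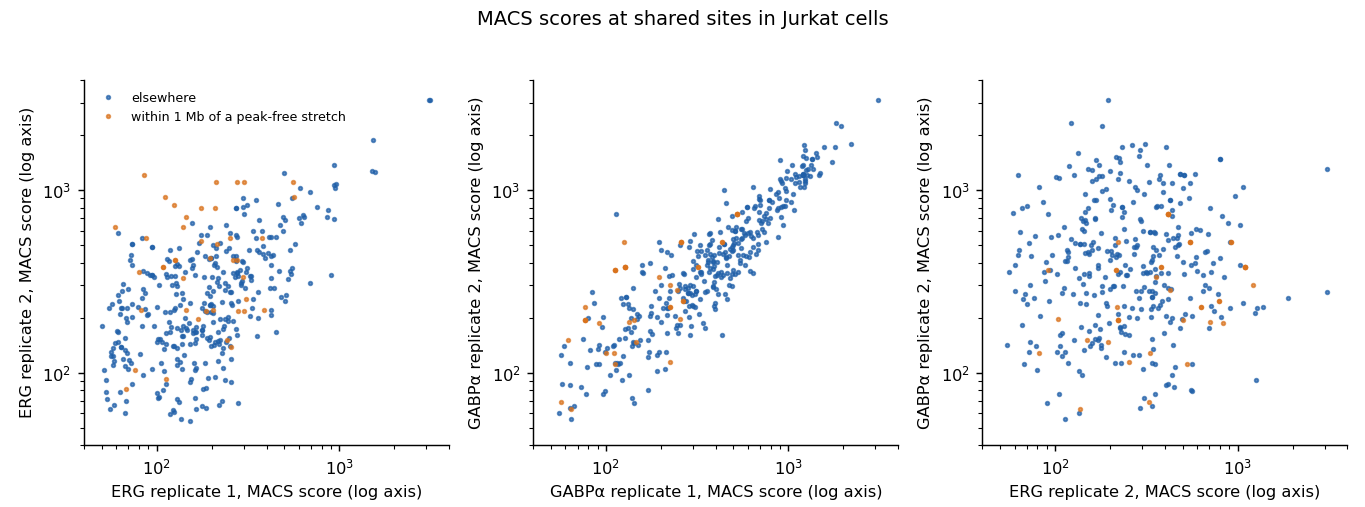
MACS scores at the 394 shared sites with a MACS peak in all 4 Jurkat samples, on log axes: ERG replicate 1 against 2 (left), GABPα replicate 1 against 2 (middle) and ERG replicate 2 against GABPα replicate 2 (right). Each point is a site, orange where it lies within 1 Mb of the longest stretch of its chromosome without a MACS peak in any sample. The GABPα replicates form a narrow band (Spearman's rho 0.89), the ERG replicates a wider one (0.49), and the points of the right panel show no slope (0.04).

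The strongest sites were those whose lowest score over the 4 Jurkat samples was highest. At the first of them, chr10:63195138-63195929 (hg18, here and below), the ERG scores were 3100 in both replicates and the GABPα scores were 1366 and 1303. At chr1:197277182-197277797 the ERG scores were 939 and 1064, and the GABPα scores were 1158 and 1045. At chr3:7893514-7893967 they were 691 and 971 for ERG and 686 and 931 for GABPα. These 3 sites had no MACS peak of either factor in any VCaP sample, and the same held for 5 of the next 7, which were chr2:167700289-167700929, chr4:79750590-79751091, chr2:59990769-59991309, chr4:186424156-186424535 and chr4:140559985-140560423. Of the remaining pair, chr11:119720242-119720668 had a single VCaP peak, GABPα with vehicle at a score of 62.6. The other, chr16:44984965-44985271, had VCaP ERG scores of 629 with vehicle and 722 with R1881, and it lies in a cluster described below.

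Some sites were strong for one factor and weak for the other. At chr6:135685793-135686635 the ERG scores were 3139 and 3100, whereas the GABPα scores were 349 and 275. At chr3:22467389-22467992 the ERG scores were 1579 and 1254 and the GABPα scores 123 and 91.2, so that the lower ERG score was 10.2 times the higher GABPα score. At chr17:50883585-50884099 the ERG scores of 1534 and 1889 stood beside GABPα scores of 222 and 256. At chr5:131003756-131004257 ERG scored 957 and 1074 and GABPα 394 and 239. These sites were among the 5 whose lower ERG score was highest. The remaining one, chr10:63195138-63195929, went the other way, with GABPα scores of 1366 and 1303. Among the 5 sites with the highest ratio of lower ERG to higher GABPα score were also chr16:53102816-53103353 and chr10:41710808-41711599. There GABPα had a MACS peak in replicate 2 only, at 51.7 and 84.5.

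The reverse was found at the sites with the highest GABPα scores. At chr2:225519939-225520270 GABPα scored 3100 in both replicates and ERG 222 and 196. At chr11:110904526-110904943 GABPα scored 1941 and 2247 and ERG 179 and 180. At chr5:112386384-112386514 GABPα scored 1812 and 2328 and ERG 57.4 and 123. At 2 further sites of this kind, chr6:166821697-166821839 and chr5:159368662-159368761, ERG had a peak in replicate 2 only, at 131 and 137. Both of these had GABPα peaks in VCaP cells and return below.

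The intervals of ERG and GABPα mostly lay on top of each other. The overlap had a median of 151 bp (from 2 to 653 bp) in ERG sites with a median length of 270 bp. Its median share of the ERG site was 62.0%. A whole GABPα site lay inside the ERG site at 294 shared sites (54.6%), and GABPα covered the whole ERG site at 96 (17.8%). The overlap was under 50% of the shorter interval at only 22 sites. A single merged GABPα interval lay on 500 of the ERG sites, 2 lay on 30, and 3 or 4 on 8.

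The centres of the ERG site and the nearest GABPα site were a median of 38.3 bp apart, with the middle 50% of sites between 18 and 70.4 bp. The distance was at most 50 bp at 334 sites (62.1%) and at most 100 bp at 470 (87.4%), and the largest was 302 bp. Because ERG replicate 1 has wider intervals, distances were also taken between SWEMBL intervals in all 4 samples. Centres of the same factor were then closer together than centres of different factors. The median between replicates was 13.8 bp for ERG (interval 10 to 20.5 bp, 250 sites) and 16 bp for GABPα (interval 13 to 20.5 bp, 319 sites). Between ERG and GABPα samples it was 33 to 43 bp in the 4 pairings, and the lowest bound of their intervals was 28.5 bp. Each pair used only the sites with an interval in both samples (192 to 439 between factors), so the sets of sites differ. The files hold no summits and no strand, so the distances have no direction.

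**Figure D2:**
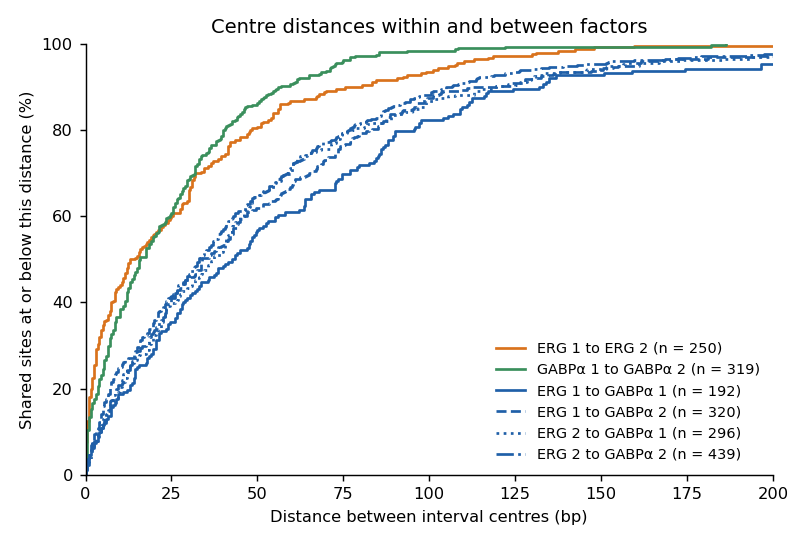
Cumulative share of shared sites (vertical axis, %) by the distance between the centres of SWEMBL intervals (horizontal axis, bp, drawn to 200 bp) for each pair of Jurkat samples. Lines within a factor rise first, with 80.8% (ERG) and 86.2% (GABPα) of sites within 50 bp, and the 4 lines between factors lie below them, with 56.8 to 64.9% within 50 bp.

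At the edge of the rule, the shared sites with the shortest overlap were chr6:36987833-36987971 (2 bp), chr17:68518918-68519026 (5 bp) and chr1:42120469-42120550 (9 bp). The nearest ERG sites left out were chr4:15376970-15377148, chrX:147199795-147199928 and chr3:12623823-12623914, whose gaps to a GABPα interval were 0, 3 and 10 bp. All 3 sites left out had GABPα MACS peaks in both replicates, with scores from 63.2 to 519. The scores of GABPα at the 3 sites kept were 75.9 to 142. Of the 748 ERG sites with a GABPα MACS peak only, 105 (14.0%) had a high confidence GABPα interval within 1 kb.

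The shared sites were not spread evenly, and a small number of clusters held many of them. For each chromosome, the longest stretch without a MACS peak in any of the 10 samples was found. On 23 chromosomes it was at least 1 Mb, from 1.36 to 30.0 Mb, and such stretches in hg18 hold the centromeres, the short arms of acrocentric chromosomes and the heterochromatin of the Y chromosome. Within 1 Mb of such a stretch lay 71 shared sites (13.2%, interval 10.6 to 16.3%), beside 13.1% of all ERG sites and 1.46% of all Jurkat GABPα sites. These are called border sites below. Bordering was thus as common among shared sites as among ERG sites at large, and rarer among GABPα sites.

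Of the border sites, 63 fell into 3 clusters. The largest held 39 shared sites in 45772 bp at chr16:44943299-44989070, and its first base lay 80 bp beyond the end of the stretch. The next held 15 sites at chr2:90960534-90977626, and the last held 9 at chr10:41676086-41717276. Sites in a cluster are not independent of each other. Those on chromosome 16 came from 36 and 20 ERG MACS peaks and from 13 and 18 GABPα MACS peaks in replicates 1 and 2. With sites under 5 kb apart joined, the 71 border sites made 14 loci and the other 467 made 454.

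**Figure D3:**
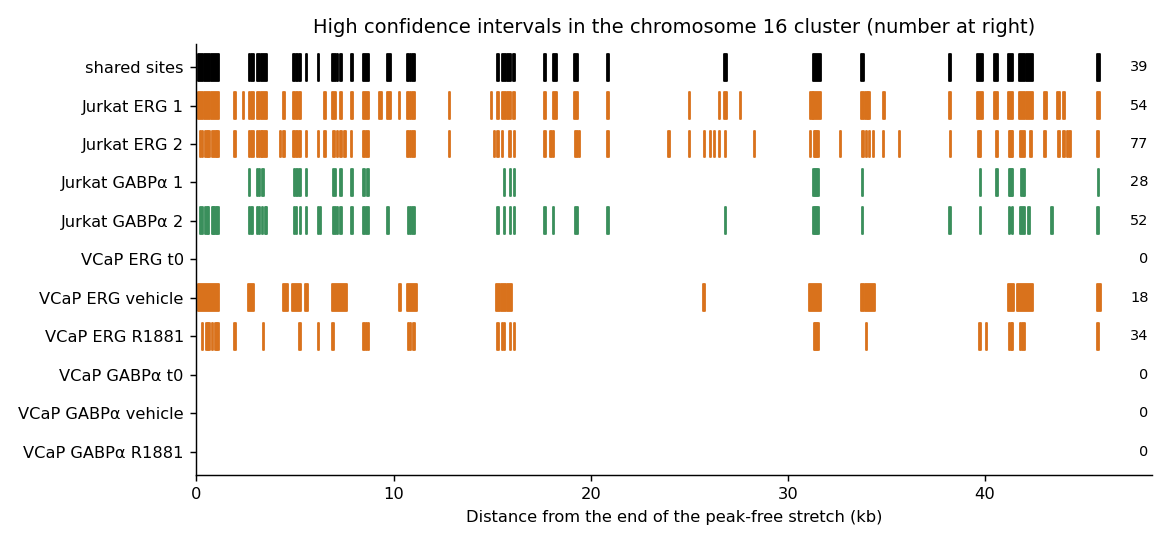
High confidence intervals of each sample in the cluster on chromosome 16, by distance from the end of the peak-free stretch (horizontal axis, kb), with the shared sites in black and the number of intervals at the right. ERG intervals were called in both Jurkat replicates (54 and 77) and in VCaP cells with vehicle (18) and R1881 (34), GABPα intervals in Jurkat cells (28 and 52) and in none of the VCaP samples.

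The border sites differed from the rest in several of the measured values. ERG was called in both replicates at 58 of the 71 (81.7%, interval 71.2 to 89.0%) and at 192 of the 467 others (41.1%, interval 36.7 to 45.6%). Intervals for border sites, here and below, count each site as independent although the 71 made 14 loci, so they are too narrow. Their median GABPα scores were 134 and 195 in replicates 1 and 2, against 374 and 360 at the other shared sites. Their median ERG scores were 165 and 381, against 177 and 209. Over all ERG sites, ERG was called in both replicates at 52.8% of the 265 border sites and at 36.4% of the 1762 others. Away from the stretches, the share among shared sites (41.1%) was close to that among the ERG sites with a GABPα MACS peak only (41.3% of 649). Among the 646 ERG sites without a GABPα peak it was lower, at 28.0% (interval 24.7 to 31.6%).

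VCaP peaks were not used to choose the sites, so they give a separate view of where the same factors bind in another cell type. With 1 VCaP sample per treatment there is no test over samples, and the intervals given cover the counting of sites only. At 410 of the 538 shared sites (76.2%) no VCaP sample had a MACS peak of either factor, beside 82.0% of all ERG sites and 54.3% of all Jurkat GABPα sites. A high confidence peak of at least 1 factor in at least 1 VCaP sample was found at 68 (12.6%), beside 5.62% of all ERG sites and 34.5% of all Jurkat GABPα sites. Away from the stretches such a peak was found at 19 of 467 shared sites (4.07%), and no MACS peak at 85.4%. Most shared sites of Jurkat cells were therefore not called for either factor in VCaP cells.

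GABPα was seldom called at these sites in VCaP cells. With R1881, 10 of the 538 had a high confidence GABPα peak (1.86%, interval 1.01 to 3.39%), beside 0.493% of all ERG sites and 31.9% of all Jurkat GABPα sites. With vehicle the number was 11 (2.04%, beside 0.543% of ERG sites), and at t0 it was 2 (0.372%, beside 0.0987%). None of the ERG sites outside the shared set had such a peak in any treatment. At the level of MACS peaks, 46 shared sites (8.55%) had GABPα with R1881, beside 3.6% of all ERG sites. All 10 sites with a high confidence peak were away from the stretches, where the share was 2.14% of 467 sites (interval 1.17 to 3.9%). The comparable share of GABPα sites without ERG was 33.7% of 9936 (interval 32.7 to 34.6%).

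This gap was present at every level of Jurkat GABPα score. Away from the stretches, sites were divided by the higher of their Jurkat GABPα scores at the quartiles of the GABPα sites without ERG. Of shared sites from the lowest to the highest bin, 2.04%, 0.971%, 0% and 5.38% had a VCaP GABPα peak with R1881. Of the GABPα sites without ERG, 34.5%, 26.2%, 29.2% and 44.6% had one. The intervals of the 2 sets did not overlap in any bin. In the third bin, 0 of 136 shared sites allowed a share of up to 2.75% (upper Wilson bound). The nearest VCaP GABPα peak with R1881 lay within 5 kb of 5.78% of the shared sites and 39.5% of the GABPα sites without ERG. For all ERG sites the share was 3.02%, all away from the stretches. Within 1 kb the shares were already 2.78%, 37.3% and 1.03%. The difference at 5 kb is therefore mainly that of the overlaps above and not a separate result.

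**Figure D4:**
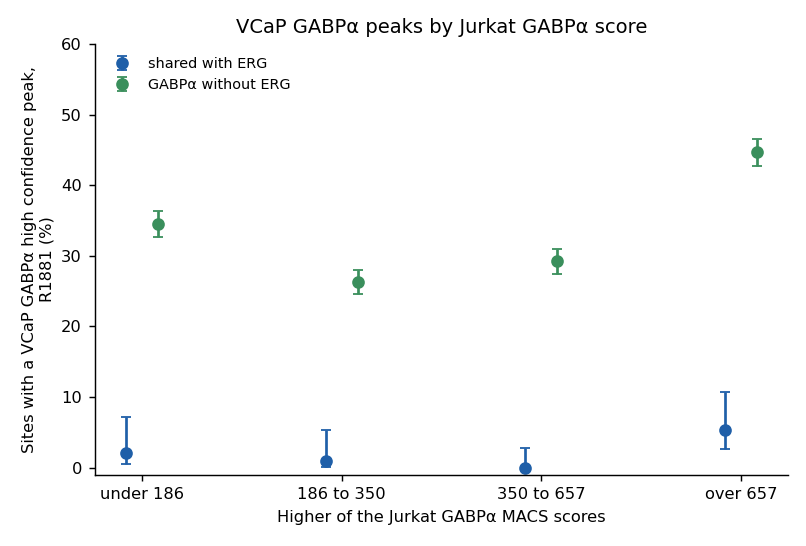
Share of Jurkat sites at which GABPα had a high confidence peak in R1881-treated VCaP cells (vertical axis, %, with 95% Wilson intervals), in 4 bins of the higher Jurkat GABPα score (horizontal axis), without border sites. Shared sites (blue) lie between 0 and 5.38%, and GABPα sites without ERG (green) between 26.2 and 44.6%.

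The 10 sites with GABPα in VCaP cells with R1881 were named after their number was seen. The highest VCaP score was at chr5:159368662-159368761, where GABPα scored 2228 and 2558 in Jurkat cells and 1734, 2812 and 3015 in VCaP cells at t0, with vehicle and with R1881. At chr10:17078235-17078596 the VCaP GABPα scores were 131, 991 and 1123. At chrX:77464061-77464251 they were 101, 1206 and 911. GABPα was thus found in all 3 VCaP samples at these sites, and at the 2 on chromosomes 10 and X ERG MACS peaks were found there too, with scores of 335 and 140 with vehicle and 253 and 205 with R1881. The other 7 had VCaP GABPα scores with R1881 from 342 to 685. They were chr1:28704996-28705195, chr2:206353691-206354022, chr19:3941259-3941447, chr6:166821697-166821839, chr1:19379040-19379311, chr15:31206039-31206181 and chr13:27880585-27881032. In 6 of the 10 sites the Jurkat ERG MACS peak was found in replicate 2 only, beside 14.7% of all shared sites and 18.8% of all ERG sites.

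ERG was called in VCaP cells more often than GABPα with vehicle and with R1881, and mainly at border sites. Away from the stretches the order was the reverse, with 7 ERG and 10 GABPα calls with R1881, 5 and 11 with vehicle, and 0 and 2 at t0. With R1881, 38 shared sites had a high confidence ERG peak (7.06%, interval 5.19 to 9.55%), beside 2.71% of all ERG sites. With vehicle there were 47 (8.74%, interval 6.63 to 11.4%), beside 4.19% of all ERG sites. At t0, where the whole list held 2 intervals, there were 0. At the level of MACS peaks, 81 shared sites had ERG with R1881 (15.1%), beside 12.3% of all ERG sites, and away from the stretches the shares were 6.64% and 5.45%. Of the sites with a high confidence ERG peak, 27 had it with vehicle and with R1881, 20 with vehicle only and 11 with R1881 only, which away from the stretches were 3, 2 and 4.

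The border sites held 31 of the 38 R1881 calls and 42 of the 47 vehicle calls. With R1881, ERG was called at 43.7% of the 71 border sites (interval 32.7 to 55.2%) and at 7 of the 467 others (1.5%, interval 0.728 to 3.06%). With vehicle it was called at 59.2% of the border sites and at 5 of the others (1.07%, interval 0.458 to 2.48%). Over all ERG sites, 16.6% of the 265 border sites were called with R1881 and 27.2% with vehicle, but 31 of these 44 R1881 calls were at shared sites. Border sites outside the shared set were called less often. The shares were 10.1% with R1881 and 24.2% with vehicle for the 99 with a GABPα MACS peak only. For the 95 without a GABPα peak they were 3.16% and 6.32%. Away from the stretches, the share with R1881 over all ERG sites, shared ones included, was 0.624% of 1762 (interval 0.349 to 1.11%), and with vehicle it was 0.738%. With R1881, ERG was called there at 0.462% of the 649 ERG sites with a GABPα MACS peak only (interval 0.157 to 1.35%). At the 646 without a GABPα peak it was 0.155% (interval 0.0273 to 0.872%). Both shares were lower than that of the shared sites, with overlapping intervals. With vehicle they were 1.08% and 0.155%. Among shared sites called for ERG with R1881 away from the stretches, the highest R1881 score was 549, at chrY:12147755-12147923. ERG scored 239 and 644 there in Jurkat cells and 889 in VCaP cells with vehicle. Only the longest stretch of each chromosome was used, here chrY:27227341-57238686, so a shorter one nearer this site would not have been counted. At chr12:19318185-19318431 the VCaP ERG scores of 586 with vehicle and 241 with R1881 were higher than the Jurkat ERG scores of 108 and 79.8. Both sites were named after their values were seen. GABPα was called at 0 of the 71 border sites in VCaP cells with R1881. With sites counted as independent, this allows up to 5.13%, an interval that includes the 2.14% found elsewhere. The pattern at the border sites rests on few loci, since 20 of the 31 R1881 calls stood in the cluster on chromosome 16 and 8 in that on chromosome 2. What sets the border sites apart was not tested.

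**Figure D5:**
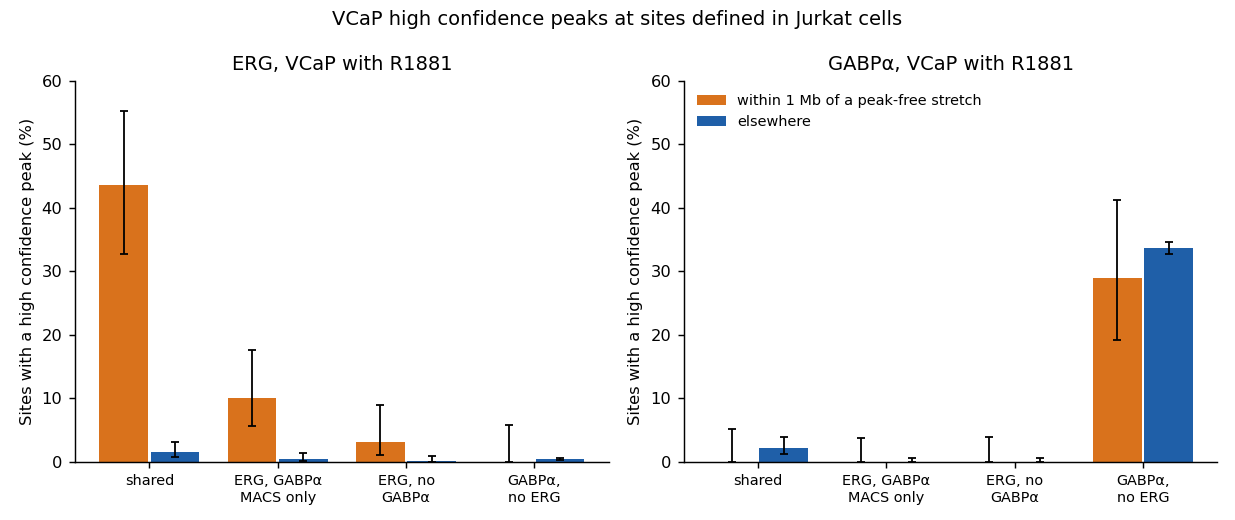
Share of Jurkat sites at which ERG (left) or GABPα (right) was called with high confidence in R1881-treated VCaP cells (vertical axis, %), for the shared sites and 3 comparison sets, within 1 Mb of a peak-free stretch (orange) and elsewhere (blue). Bars are shares with 95% Wilson intervals. ERG reached 43.7% at shared border sites and 1.5% at the other shared sites, and GABPα 33.7% at GABPα sites without ERG and 2.14% at shared sites, both elsewhere.

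High confidence peaks of both factors in VCaP cells, in any treatment, were found at 3 shared sites (0.558%), beside 0.148% of all ERG sites and 0.274% of all Jurkat GABPα sites, and 2 of the 3 had both with R1881. At chr2:206353691-206354022 ERG scored 245 and 200 and GABPα 694 and 893 in Jurkat cells, and with R1881 in VCaP cells ERG scored 406 and GABPα 592. At chr13:27880585-27881032 ERG scored 276 and 553 and GABPα 169 and 80.0 in Jurkat cells, and with R1881 ERG scored 344 and GABPα 342. Among the sites with VCaP ERG and no VCaP GABPα peak of any kind, the highest ERG scores with R1881 were 423 at chr2:90974607-90974728 and at chr2:90975335-90975464, which share 1 MACS peak. Of the 5 highest, only chr17:59513183-59513613 was not a border site, with Jurkat ERG scores of 154 and 120, a Jurkat GABPα score of 149 in replicate 2, and VCaP ERG scores of 71.1 at t0, 122 with vehicle and 364 with R1881. The VCaP ERG peaks at the other 2, chr16:44958460-44958565 and chr16:44958698-44958898, also came from 1 MACS peak with a score of 307.

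VCaP peaks were also counted by the number of Jurkat samples behind a site. Away from the stretches, a MACS peak of either factor in any VCaP sample was found at 20.9% of the 115 sites called in all 4 Jurkat samples (interval 14.4 to 29.2%), at 12.7% of the 252 called in 3 (9.14 to 17.4%) and at 12% of the 100 called in 2 (7.0 to 19.8%). These intervals overlapped. Their median scores differed as well, at 489 and 518 for GABPα in the 4-sample sites against 177 and 164 in the 2-sample sites. No shared site had a MACS peak in all 10 samples, and the largest number was 9.

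The share of sites on a chromosome differed between the sets on some chromosomes. Chromosome 19 held 10 of the 538 shared sites (1.86%, interval 1.01 to 3.39%), 21 of the 1489 other ERG sites (1.41%) and 596 of the 9998 GABPα sites without ERG (5.96%, interval 5.51 to 6.44%). Chromosome 4 held 6.69% of the shared sites (interval 4.87 to 9.12%), 7.86% of the other ERG sites and 3.42% of the GABPα sites without ERG (interval 3.08 to 3.80%). On these 2 chromosomes the share among shared sites was nearer to that of the other ERG sites. On the Y chromosome it was nearer to that of the GABPα sites without ERG, but it rests on 2 shared sites (0.372%, interval 0.102 to 1.35%). The shares there were 2.69% of the other ERG sites and 0.38% of the GABPα sites without ERG. These 3 chromosomes were chosen after their values were seen. Distances to genes, promoters and sequence motifs were not analysed here.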

How the data were processed

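ERG and GABPα were measured by ChIP-seq in 4 Jurkat and 6 VCaP samples, and the 6 input samples have no file here. The authors mapped sequence reads on hg18 using BWA 0.5.5 and removed duplicates and reads with an alignment quality under 15. They ran MACS and SWEMBL on each sample with an input, which some samples shared. The versions of both are not given in the sources used here. Replicates were not pooled. The deposited MACS score is 10 times the negative log10 of the p-value, and values at high confidence intervals without a score of their own were taken from the overlapping MACS peak. Other fields hold positions. How far library depth affects the number of peaks is unknown.

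Samples were grouped by the labels. ERG and GABPα intervals were each merged over replicates and compared by an overlap of at least 1 bp (Python 3.11.15, numpy 2.4.6, scipy 1.17.1, pandas 2.3.3, figures with matplotlib 3.10.9). The interval code was tested on simulated data against bedtools 2.31.1 and found all 300 overlaps set among 2000 intervals. Shares carry 95% Wilson intervals, and medians of distances carry order-statistic intervals, both over sites and not over cultures. No test over samples was made, because the rule used the Jurkat calls and each VCaP treatment has 1 sample. The shared sites and lists were chosen with earlier results of these data known. Sites were named, outside chromosome 8, as those with the highest lowest score over the 4 Jurkat samples (10), over ERG (5) or over GABPα (5), the highest ratio of lowest ERG to highest GABPα score (5), both factors in VCaP with R1881 (up to 10), VCaP ERG without a VCaP GABPα peak (up to 5), and the 3 shortest overlaps and gaps. Alternatives were another peak set, score minimum, overlap, replicate rule or VCaP sample, and, after the data were seen, SWEMBL intervals throughout and leaving out border sites. Genes, sequences and motifs were left out because no hg18 reference was used here.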

Additional observations from a re-analysis of the deposited data

How the results depend on the processing

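The 8 results examined (the number and share of shared sites, the shares with VCaP GABPα, VCaP ERG and ERG in both replicates, the centre distance and the median GABPα scores of both replicates) gave 117 values under the alternatives. Of these, 82 stayed inside the interval of the reported value, or within 1.5 times the number of sites, and 35 moved beyond it. With all MACS peaks in Jurkat cells there were 5525 shared sites (29.2%), with VCaP GABPα at 0.905%, VCaP ERG at 1.29%, ERG in both replicates at 37.1%, a centre distance of 70 bp and median GABPα scores of 142 and 135. A minimum score of 100 gave 24.5% shared and a GABPα score of 381 in replicate 2. Whole MACS peaks gave 30.1% shared and 95 bp. Requiring ERG in both replicates left 250 sites (32.0%) with VCaP ERG at 12.4%. Requiring GABPα in both left 319 sites (15.7%) with GABPα scores of 485 and 510. At t0 in VCaP cells, the shares were 0.372% for GABPα and 0% for ERG, and with VCaP MACS peaks they were 8.55% and 15.1%. These sets differ by construction. An overlap of at least 50% moved none of the 8 results. Leaving out sites with a MACS peak in all 10 samples, of which there were none among the shared sites, moved none of the 4 it was run for.

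Leaving out each Jurkat sample in turn gave 331 to 516 shared sites, 16.8 to 30.0% shared, VCaP GABPα at 1.21 to 2.64%, VCaP ERG at 5.28 to 10.6%, ERG in both replicates at 43.1 to 47.1%, centre distances of 32.5 to 40.5 bp, and GABPα scores of 319 to 448 in replicate 1 and 326 to 359 in replicate 2. The number fell by more than 1.5 times without ERG replicate 2 (331) and without GABPα replicate 2 (341). Taking the replicate number as a replicate block, so that only ERG and GABPα intervals of the same number counted, left 488 sites (24.1% shared) and moved none of the other 6 results. The labels do not say that the numbers mark a shared culture. Over 394 sites, Spearman's rho of ERG with GABPα scores was -0.04 and 0.04 in same-numbered and -0.03 and -0.01 in crossed pairs. These values compare sites and not cultures, so they cannot tell whether cultures were shared.

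Chosen after the data were seen, SWEMBL intervals in all Jurkat samples moved none of the 8 results. Without sites within 1 Mb of a peak-free stretch, VCaP ERG fell to 1.5% and ERG in both replicates to 41.1%, and with 5 Mb in its place they were 1.59% and 41.8%. The comparison of summits and the search for motifs were not run, since the files give no summits and no hg18 sequence was used here. With read numbers unknown, a missing peak does not show that a factor was absent.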

Other observations

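The cluster on chromosome 16 took up a larger part of the ERG lists than of the GABPα lists. Its 45772 bp held 4.90% and 4.28% of the high confidence intervals of Jurkat ERG replicates 1 and 2, 0.338% and 0.532% of those of the GABPα replicates, and 2.42% and 1.53% of those of VCaP ERG with vehicle and R1881. VCaP GABPα had 0 high confidence intervals there in all 3 treatments. All intervals within 1 Mb of a peak-free stretch made up 16.7% and 14.6% of the Jurkat ERG lists and 0.965% and 1.5% of the Jurkat GABPα lists. What differs between these lists at such places was not tested.

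At chr7:56142291-56142653 the GABPα MACS score in VCaP cells was 3100 with vehicle and with R1881, the highest of any shared site, but no high confidence interval of these samples overlapped the site. In Jurkat cells GABPα scored 446 and 1004 there. The site was singled out after its values were seen.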
